A study of Mus musculus with 10 samples.

Results

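Ppp1r10, Inpp5b and Lctl are the 3 protein-coding genes with the clearest difference between high-fat and low-fat diet when both genotypes were considered together, taken from 30319 genes with a symbol in the deposited table. They ranked at places 1, 3 and 2 among 14407 protein-coding genes ordered by the p value of that comparison, and all 3 passed the filter on low values (at least 1 TPM in at least 2 libraries), which kept 16932 genes. TPM is a level scaled to the library total and corrected for transcript length. The genes were chosen by their measured diet difference relative to its error, so their diet values are given as a description, without a test. The genotype comparisons and the interaction of genotype with diet were not used to rank the genes and were tested. Their limma p values share the error estimate of the diet comparison. A choice that favours a small error tends to make these p values too small. Because the groups are unequal in size, the interaction and the genotype differences within each diet are also not fully independent of the averaged diet difference.

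The RNA came from total subcutaneous mammary fat, dissected as inguinal fat pads of female FVB mice, and was sequenced as ribosomal RNA-depleted, strand-marked total RNA libraries. The 10 libraries form 4 groups. Null_HFD (n = 3) are FAP-/- mice and WT_HFD (n = 2) wild-type mice fed a high-fat diet with 60% of calories from fat. Null_LFD (n = 3) are FAP-/- and WT_LFD (n = 2) wild-type mice fed an ingredient-matched low-fat diet with 10% of calories from fat. All mice were on their diet from 12 to 30 weeks of age. FAP-/- mice carry a disrupted gene for fibroblast activation protein, a membrane protease of activated fibroblasts, and how the allele was made is not described. The series describes the libraries as biological replicates.

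Fap transcript measured 18.3 to 38.4 TPM in the 6 null libraries and 37.7 to 68.8 TPM in the 4 wild-type libraries, and the library labelled Null_HFD 2 lay above the library labelled WT_HFD 2. A gene-level value cannot show a partial deletion, so it is a limited check of the genotype labels. The depth behind the values is unknown, because TPM keeps no read numbers. Of the high-fat libraries, Null_HFD 3 and WT_HFD 2 were unlike all others in their marker transcripts. Their lymph node markers summed to 3177 and 1164 TPM, against 21.5 to 47.6 TPM in the other 8 libraries. Their skeletal muscle markers summed to 154 and 350.0 TPM, against 2625 to 11869 TPM in the others.

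The 3 genes act in unrelated processes. Ppp1r10 encodes PNUTS, a nuclear protein that holds the catalytic subunit of protein phosphatase 1 (PP1) on chromatin, where the phosphatase acts on RNA polymerase II and its elongation factors and helps transcription to end. Inpp5b encodes a phosphatase that removes the 5-phosphate from inositol lipids of the plasma membrane, endosomes and Golgi, and it is the closest relative of Ocrl, the gene mutated in Lowe syndrome in humans. Lctl encodes lactase-like protein, a membrane protein with a glycosidase-like domain, related to klotho and beta-klotho, the co-receptors of endocrine fibroblast growth factors. In the mouse Lctl is best known from the lens.

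Ppp1r10 lies on the plus strand of chromosome 17, 35916434 to 35932283 (GENCODE M21, GRCm38, ENSMUSG00000039220.16). Inpp5b lies on the plus strand of chromosome 4, 124741850 to 124801511 (ENSMUSG00000028894.18). Lctl lies on the plus strand of chromosome 9, 64117147 to 64138118 (ENSMUSG00000032401.15). The promoter windows below are shown because Ppp1r10 and Inpp5b lay higher and Lctl lower in the same libraries. They come from RefSeq (GRCm38.p6) and span 250 bases before to 50 bases after an annotated start, and the capitals mark matches on either strand to TATAAA or to GGGCGG, which reads CCGCCC on the other strand.
Ppp1r10, chr17:35916946-35917245, plus strand: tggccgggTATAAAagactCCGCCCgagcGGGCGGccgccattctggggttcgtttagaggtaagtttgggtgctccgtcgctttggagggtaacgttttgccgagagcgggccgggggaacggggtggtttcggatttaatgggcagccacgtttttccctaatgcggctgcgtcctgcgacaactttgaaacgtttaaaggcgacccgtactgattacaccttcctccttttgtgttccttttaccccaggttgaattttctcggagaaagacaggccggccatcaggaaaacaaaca
Inpp5b, chr4:124741600-124741899, plus strand: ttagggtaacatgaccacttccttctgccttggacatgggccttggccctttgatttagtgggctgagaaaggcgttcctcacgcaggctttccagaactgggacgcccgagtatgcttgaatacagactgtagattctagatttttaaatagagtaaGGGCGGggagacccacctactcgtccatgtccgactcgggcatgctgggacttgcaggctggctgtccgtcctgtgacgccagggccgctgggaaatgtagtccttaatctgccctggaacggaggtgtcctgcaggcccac
Lctl, chr9:64116897-64117196, plus strand: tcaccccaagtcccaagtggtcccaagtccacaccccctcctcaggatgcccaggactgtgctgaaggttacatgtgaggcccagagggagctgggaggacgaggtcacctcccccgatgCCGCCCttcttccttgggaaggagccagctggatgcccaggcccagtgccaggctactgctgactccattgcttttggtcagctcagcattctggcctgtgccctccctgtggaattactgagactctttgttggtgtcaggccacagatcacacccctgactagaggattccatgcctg

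The windows differed in CpG content, with 24 CpG pairs in Ppp1r10, 12 in Inpp5b and 3 in Lctl, where the median of all 32851 windows in the table was 7. All 3 windows held GGGCGG, which 35.7% of all windows hold. The Ppp1r10 window also held TATAAA, found in 13.6%, at position -242 from the annotated start. The letters CCAAT (37.4% of all windows), those of the E-box CACGTG (7.15%), those of the cyclic AMP element TGACGTCA (1.79%) and a direct repeat of AGGTCA with 1 base between (0.0396%) were searched on both strands and were not in these 3 windows. A match describes the letters and is not evidence of a bound factor. Both RefSeq starts of Ppp1r10 lie inside the GENCODE gene, and the window of the other start, 35919022 to 35919321, held 5 CpG pairs and 1 GGGCGG.

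Ppp1r10 measured 58.9, 75.2 and 66.8 TPM in Null_HFD and 67.9 and 70.6 TPM in WT_HFD libraries. It measured 41.2, 43.9 and 36.1 TPM in Null_LFD and 25.3 and 28.8 TPM in WT_LFD libraries. All 5 high-fat libraries lay above all 5 low-fat libraries, and the high-fat mean was 1.94 times the low-fat mean (67.9 ± 5.94 against 35.0 ± 7.93 TPM, SD, n = 5 each). In order of level the group means were 69.2 ± 1.88 TPM in WT_HFD, 67.0 ± 8.11 TPM in Null_HFD, 40.4 ± 3.98 TPM in Null_LFD and 27.0 ± 2.53 TPM in WT_LFD, and the WT_HFD and Null_HFD means did not differ beyond their spread. On the log2(TPM + 1) scale the difference, high-fat minus low-fat, was 1.02 (SE 0.13).

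Inpp5b measured 24.8, 29.8 and 21.0 TPM in Null_HFD and 16.8 and 22.2 TPM in WT_HFD libraries. It measured 8.96, 9.09 and 10.8 TPM in Null_LFD and 13.0 and 10.4 TPM in WT_LFD libraries. The high-fat libraries again lay above all low-fat libraries, with a mean 2.19 times as high (22.9 ± 4.84 against 10.4 ± 1.65 TPM, SD, n = 5 each). The group means ran in the order Null_HFD (25.2 ± 4.44 TPM), WT_HFD (19.5 ± 3.85 TPM), WT_LFD (11.7 ± 1.88 TPM) and Null_LFD (9.61 ± 1.01 TPM), and within either diet the ranges of null and wild-type libraries overlapped. The log2 difference between the diets was 0.99 (SE 0.17).

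Lctl measured 64.3, 43.4 and 35.0 TPM in Null_HFD and 24.8 and 9.83 TPM in WT_HFD libraries. It measured 93.9, 91.0 and 94.9 TPM in Null_LFD and 116 and 64.5 TPM in WT_LFD libraries. Lctl thus ran the other way from Ppp1r10 and Inpp5b, with a high-fat mean of 35.5 ± 20.4 against a low-fat mean of 92.0 ± 18.2 TPM (SD, n = 5 each), a ratio of 0.385. The gap between the diets was narrow, since the highest high-fat library, Null_HFD 1 at 64.3 TPM, nearly reached the lowest low-fat library, WT_LFD 2 at 64.5 TPM. The group means ran in the order Null_LFD (93.3 ± 2.02 TPM), WT_LFD (90.1 ± 36.2 TPM), Null_HFD (47.6 ± 15.1 TPM) and WT_HFD (17.3 ± 10.6 TPM), and the low-fat groups did not differ beyond their spread. The log2 difference between the diets was -1.69 (SE 0.28).

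**Figure D1:**
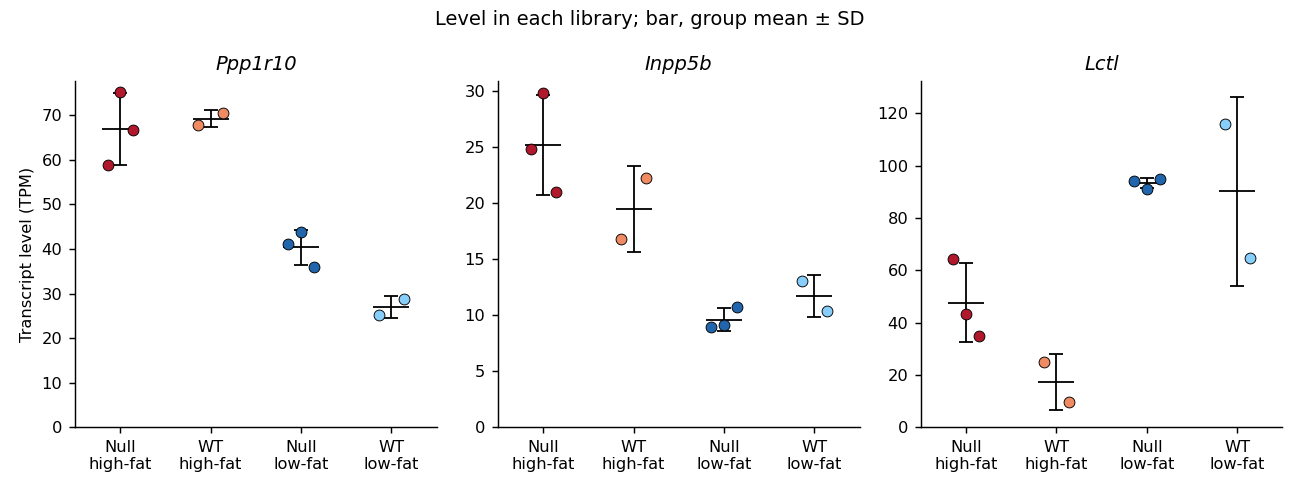
Transcript level in TPM (vertical axis, from 0) of Ppp1r10, Inpp5b and Lctl in each library (points) of the 4 groups, with the group mean and SD (bars). For Ppp1r10 and Inpp5b all 5 high-fat libraries sit above all 5 low-fat libraries, and for Lctl all 5 sit below, with 64.3 and 64.5 TPM as the nearest values.

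By the mean over the 10 libraries, the level of Lctl stood at the 86.3rd percentile of tested genes (63.7 TPM), that of Ppp1r10 at the 82.4th (51.5 TPM) and that of Inpp5b at the 54.7th (16.7 TPM). For each of the 3 genes the libraries of the diets did not overlap, which held for 2% of all tested genes (1.59% higher and 0.413% lower on the high-fat diet), and nothing is read from this for genes chosen on the same difference. With limma and Benjamini-Hochberg adjustment, 0 of 16932 genes (0%) were called between the diets at an adjusted p of at most 0.05, while 1641 genes had an unadjusted p under 0.05. The median log2 difference of all tested genes was 0.11, and relative to it Ppp1r10 stood at 0.91, Inpp5b at 0.88 and Lctl at -1.80. In a whole fat pad, fewer cells of a type and less RNA per cell cannot be told apart.

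The genes just outside the choice were close to the genes just inside it. Inpp5b, the last gene inside, had a log2 difference 5.88 times its SE. Myl4, a myosin light chain gene, was next at 5.59 times, with 12.2 to 34.9 TPM in high-fat and 5.26 to 10.1 TPM in low-fat libraries. Rap1gap2, a GTPase-activating protein gene, followed at 5.55 times, with 7.97 to 19.2 TPM in high-fat and 3.06 to 9.04 TPM in low-fat libraries. Ubd, which encodes a ubiquitin-like modifier, stood at 5.17 times, Hephl1, a ferroxidase-like gene, at -5.12 times and Snx30, a sorting nexin gene, at 5.11 times.

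The diet difference of each gene had the same direction in both genotypes. This follows from the lack of overlap between all high-fat and all low-fat libraries, so it is not separate support. In null mice the log2 difference was 0.71 (SE 0.16) for Ppp1r10, 1.29 (SE 0.21) for Inpp5b and -1.0 (SE 0.36) for Lctl. In wild-type mice it was 1.33 (SE 0.19) for Ppp1r10, 0.69 (SE 0.26) for Inpp5b and -2.39 (SE 0.44) for Lctl. The estimate was thus larger in wild-type mice for Ppp1r10 and Lctl and larger in null mice for Inpp5b. The median of all genes was 0.04 in null and 0.20 in wild-type mice, so relative to it the wild-type values were 1.13, 0.49 and -2.58. For the same reason, the diet groups of null mice did not overlap for any of the 3 genes, nor did those of wild-type mice. The same holds for 11.1% of all tested genes in null mice and 45.1% in wild-type mice, where limma called 0.00591% and 0%. The Lctl value in wild-type mice rested on few libraries, as it was -1.76 without WT_HFD 2 and -3.01 without WT_HFD 1.

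The interaction, which takes the diet difference in null mice minus that in wild-type mice, asks whether these sizes differ. It was -0.61 (SE 0.25) for Ppp1r10, 0.61 (SE 0.34) for Inpp5b and 1.39 (SE 0.56) for Lctl, and none of the 3 was called. The unadjusted limma p was 0.0368 for Ppp1r10, 0.103 for Inpp5b and 0.0353 for Lctl, and the adjusted p was 1.00 for all 3 genes. limma called 0 of 16932 genes (0%) in the interaction, and 701 had an unadjusted p under 0.05. The median over all genes was -0.13, so relative to it the interaction was -0.48 for Ppp1r10, 0.74 for Inpp5b and 1.52 for Lctl. Without WT_HFD 2 the interaction of Lctl was 0.76.

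**Figure D2:**
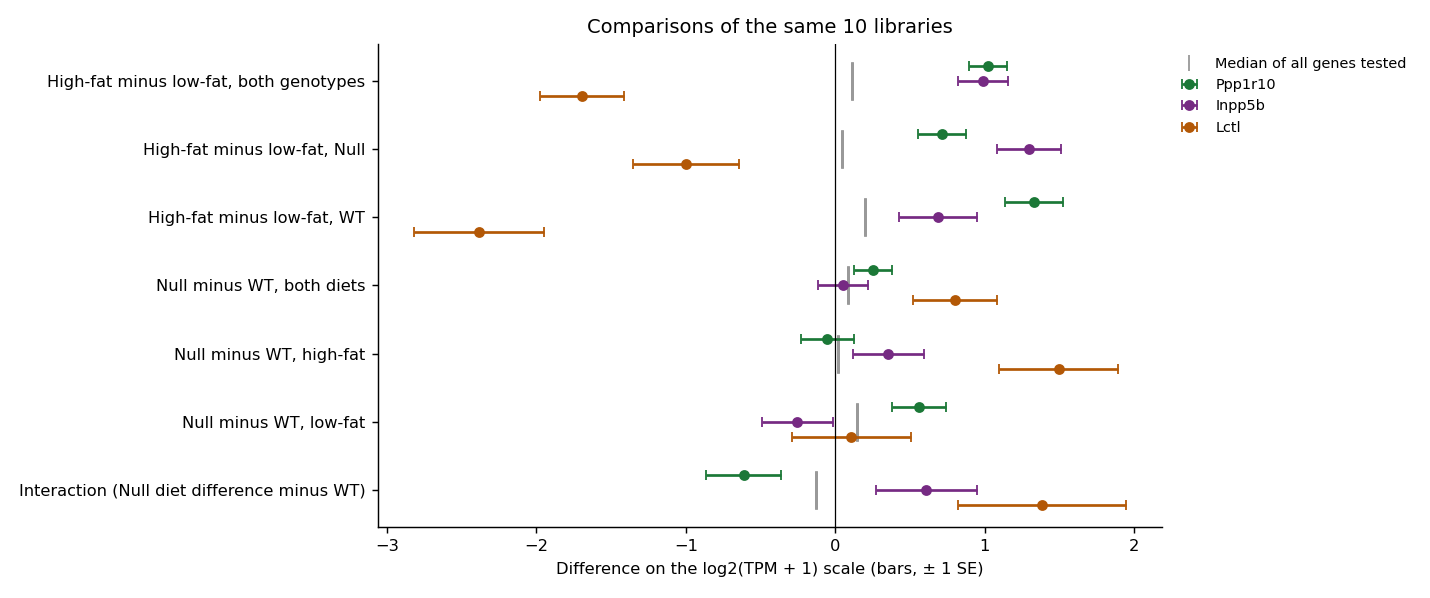
Differences on the log2(TPM + 1) scale (horizontal axis) of Ppp1r10, Inpp5b and Lctl in each comparison, with bars of 1 SE and grey ticks at the median of all tested genes. The diet differences sit to the right of 0 for Ppp1r10 and Inpp5b and to the left for Lctl in both genotypes, and the interaction is -0.61, 0.61 and 1.39.

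Genotype over both diets asks whether loss of Fap went with the level of these genes. Ppp1r10 measured 36.1 to 75.2 TPM (median 51.4) in null and 25.3 to 70.6 TPM (median 48.4) in wild-type libraries. Inpp5b measured 8.96 to 29.8 TPM (median 15.9) in null and 10.4 to 22.2 TPM (median 14.9) in wild-type libraries. Lctl measured 35.0 to 94.9 TPM (median 77.6) in null and 9.83 to 116 TPM (median 44.7) in wild-type libraries. The genotypes overlapped for all 3 genes, while 0.921% of all tested genes showed no overlap.

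The log2 difference, null minus wild type, was 0.25 (SE 0.13) for Ppp1r10, 0.05 (SE 0.17) for Inpp5b and 0.80 (SE 0.28) for Lctl. The adjusted limma p was 0.98 for Ppp1r10, 0.997 for Inpp5b and 0.98 for Lctl, in a comparison where 0 of 16932 genes (0%) were called and 709 had an unadjusted p under 0.05. In an exact two-sided permutation of genotype within diets (100 arrangements, smallest possible p 0.01), p was 0.13 for Ppp1r10, 0.82 for Inpp5b and 0.07 for Lctl. The Lctl difference was 0.49 without WT_HFD 2. The Inpp5b value changed sign with median-of-ratios scaling (-0.02) and without Null_HFD 2, WT_HFD 1 or WT_LFD 2 (-0.01, -0.05 and -0.03).

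The same comparison was made within each diet. On the low-fat diet Ppp1r10 measured 36.1 to 43.9 TPM in null and 25.3 to 28.8 TPM in wild-type libraries, without overlap (log2 difference 0.56, SE 0.18, limma adjusted p = 0.949). On the high-fat diet its difference was -0.05 (SE 0.18, limma adjusted p = 1), and it turned to 0.03 without Null_HFD 1. No overlap on the low-fat diet was seen in 25.4% of all tested genes (19.1% higher in null), and limma called 0% of genes there, with 750 at an unadjusted p under 0.05.

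On the high-fat diet Lctl measured 35.0 to 64.3 TPM in null and 9.83 to 24.8 TPM in wild-type libraries, without overlap (log2 difference 1.49, SE 0.40, limma adjusted p = 1). That difference was 0.87 without WT_HFD 2, which had the lowest Lctl value of all libraries. No overlap on the high-fat diet was seen in 15.5% of all tested genes (7.73% higher in null), and limma called 0.0118% of them. On the low-fat diet the Lctl difference was 0.11 (SE 0.40, limma adjusted p = 0.991), and it turned to -0.04 with median-of-ratios scaling and to -0.31 without WT_LFD 2. Inpp5b differed by 0.35 (SE 0.24, limma adjusted p = 1) on the high-fat and by -0.26 (SE 0.24, limma adjusted p = 0.949) on the low-fat diet. The median of all genes on the low-fat diet was 0.15, so relative to it the low-fat values were 0.41 for Ppp1r10, -0.40 for Inpp5b and -0.04 for Lctl. The Inpp5b values moved with single libraries. On the high-fat diet the difference was 0.16 without WT_HFD 1, 0.23 without Null_HFD 2, 0.55 without WT_HFD 2 and 0.67 without WT_HFD 2 and Null_HFD 3 together. On the low-fat diet it was -0.10 without WT_LFD 1 and -0.41 without WT_LFD 2.

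Several marker lists moved with diet or with single libraries. Lymph node markers had a higher mean on the high-fat diet in 14 of 14 genes. They summed to 42.7 to 3177 TPM in high-fat and 21.5 to 35.3 TPM in low-fat libraries, so the diets did not overlap. Skeletal muscle markers had a higher mean on the high-fat diet in 0 of 11 genes (154 to 6321 TPM in high-fat, 2625 to 11869 TPM in low-fat libraries). Luminal epithelial markers were also higher in 0 of 10 genes (309 to 1280 TPM in high-fat, 479 to 2481 TPM in low-fat libraries), with Wap, a milk protein gene, at 0 in at least 1 library.

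Thermogenic fat markers were higher on the high-fat diet in 0 of 8 genes (111 to 1404 TPM in high-fat, 439 to 1795 TPM in low-fat libraries). Mature adipocyte markers were higher in 9 of 12 genes (13045 to 37231 TPM in high-fat, 17928 to 38329 TPM in low-fat libraries) and macrophage markers in 5 of the 6 present in the table (590 to 1778 TPM in high-fat, 487 to 825 TPM in low-fat libraries). Transcripts of the mitochondrial genome took 3.36% to 9.76% of TPM in high-fat and 6.28% to 13.8% in low-fat libraries. The part of these contents in the values of Ppp1r10, Inpp5b and Lctl was not tested. Without WT_HFD 2 and Null_HFD 3 the diet difference was 1.01 (SE 0.14) for Ppp1r10, 0.95 (SE 0.17) for Inpp5b and -1.28 (SE 0.23) for Lctl.

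**Figure D3:**
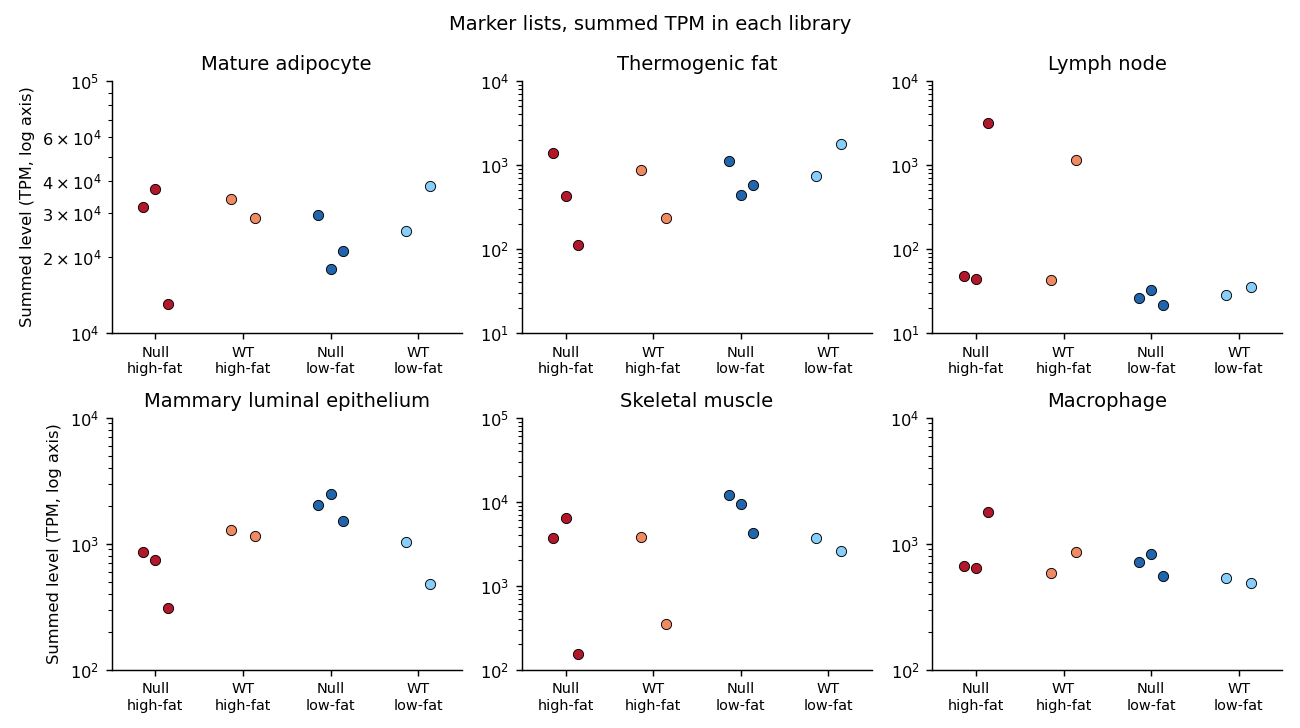
Summed TPM (vertical axis, logarithmic) of the 6 marker lists in each library of the 4 groups. Null_HFD 3 and WT_HFD 2 sit at 3177 and 1164 TPM for lymph node markers, above 21.5 to 47.6 TPM in the other 8 libraries, and lowest for skeletal muscle markers.

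In the averaged diet and genotype comparisons limma called 0 of 16932 genes. The lack of calls in the lists below is therefore not particular to them. PNUTS works in a complex with Tox4, a DNA-binding protein, Wdr82, which binds the tail of RNA polymerase II, and a PP1 catalytic subunit. None of the other 5 genes of this complex was called between the diets (3 higher, 2 lower, or 2 above and 3 below the median of all genes tested, with a median log2 difference of 0.03 against 0.11 over all genes). Tox4 came nearest to Ppp1r10, at 21.4 to 50.3 TPM in high-fat and 17.5 to 29.8 TPM in low-fat libraries (0.60, SE 0.22, limma adjusted p = 0.513). Wdr82 measured 41.7 to 99.9 TPM in high-fat and 44.3 to 73.1 TPM in low-fat libraries (0.26, SE 0.23). The catalytic subunits Ppp1ca, Ppp1cb and Ppp1cc differed by 0.03 (SE 0.17), -0.12 (SE 0.14) and -0.07 (SE 0.20). Between genotypes 0 of the 5 were called, with 5 higher in null libraries, all above the median of all genes, and a median of 0.23 against 0.08.

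Of 31 other regulators of PP1 or genes named as such, 30 were tested. As of all 16932 genes, 0 of them were called between the diets, with 15 higher and 15 lower on the high-fat diet (median 0.03 against 0.11 over all genes). Of these 30 genes 11 had an unadjusted limma p under 0.05, a larger share than the 1641 of all 16932 genes, and the list was not tested as a set. Ppp1r7 encodes SDS22, a conserved partner of the catalytic subunit, and measured 22.7 to 30.3 TPM in high-fat and 9.13 to 19.1 TPM in low-fat libraries (0.93, SE 0.22, limma adjusted p = 0.513). Ppp1r21, known for an endosomal complex, measured 29.9 to 68.4 TPM in high-fat and 17.3 to 23.6 TPM in low-fat libraries (1.09, SE 0.22, limma adjusted p = 0.513). The largest differences of the list ran the other way, at -1.74 (SE 0.73) for Ppp1r3a and -1.54 (SE 0.45) for Ppp1r3b. Between genotypes 0 of the 30 were called (20 higher and 10 lower in null, or 15 above and 15 below the median of all genes, median 0.09 against 0.08).

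Inpp5b belongs to a family of inositol polyphosphate 5-phosphatases. The other 10 members were all tested. As of all 16932 genes, 0 of them were called between the diets, with 7 higher and 3 lower on the high-fat diet (median 0.16 against 0.11 over all genes). Ocrl, the closest relative, measured 18.6 to 34.6 TPM in high-fat and 25.0 to 40.4 TPM in low-fat libraries (-0.10, SE 0.20, limma adjusted p = 0.874). Inpp5d, which encodes the SHIP1 phosphatase of blood cells, measured 23.9 to 112 TPM in high-fat and 18.7 to 22.4 TPM in low-fat libraries (1.18, SE 0.38, limma adjusted p = 0.513), and its highest value was in Null_HFD 3, the library with the most lymph node transcripts. Inpp5k, a phosphatase of the endoplasmic reticulum, differed by 0.52 (SE 0.22) and Inppl1, which encodes SHIP2, by 0.17 (SE 0.20). Between genotypes 0 of the 10 were called (5 higher and 5 lower in null, or 3 above and 7 below the median of all genes, median 0.0045 against 0.08).

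Transcripts of genes whose proteins bind Inpp5b and Ocrl on endosomes were measured as well. Of these 6 genes, as of all 16932, 0 were called between the diets (3 higher, 3 lower, or 2 above and 4 below the median of all genes, median 0.0042 against 0.11). The endosomal adaptor gene Appl1 measured 40.7 to 55.6 TPM in high-fat and 38.2 to 41.3 TPM in low-fat libraries (0.16, SE 0.12). The small GTPase gene Rab5c differed by 0.36 (SE 0.17, limma adjusted p = 0.527), and Rab5a and Rab5b by 0.05 (SE 0.13) and -0.04 (SE 0.11). Between genotypes 0 of the 6 were called (4 higher and 2 lower in null, or 3 above and 3 below the median of all genes, median 0.07 against 0.08).

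Lctl, at a mean of 63.7 TPM over the 10 libraries, was set beside its klotho-family relatives. Klb, which encodes beta-klotho, was the other member to pass the filter, at 17.0 to 56.5 TPM in high-fat and 27.0 to 65.1 TPM in low-fat libraries (log2 difference -0.55, SE 0.31, limma adjusted p = 0.549). Kl, which encodes klotho, reached at most 0.237 TPM and Lct, which encodes intestinal lactase, at most 0.180 TPM in any library. The receptor genes Fgfr1, Fgfr2 and Fgfr3 passed the filter and differed between the diets by -0.01 (SE 0.28), -0.41 (SE 0.34) and 0.25 (SE 0.30). Fgfr4 and the hormone genes Fgf15, Fgf21 and Fgf23 stayed below the filter, with maxima of 0.588, 0.174, 1.91 and 0.402 TPM. None of the 4 tested genes was called between diets or genotypes, in comparisons where 0 of 16932 genes were called. Between genotypes Klb differed by -0.34 (SE 0.31), and of the 3 receptors 1 was higher and 2 were lower in null libraries (median -0.23 against 0.08).

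**Figure D4:**
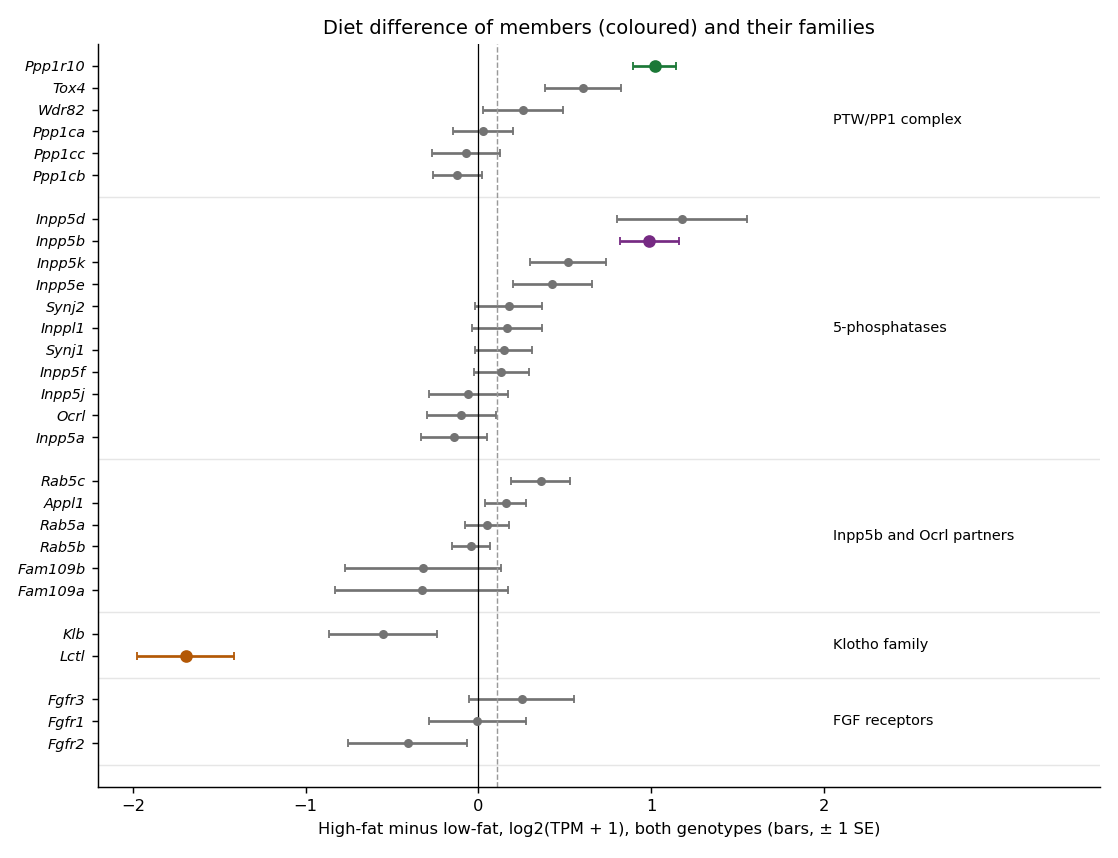
High-fat minus low-fat difference over both genotypes on the log2(TPM + 1) scale (horizontal axis, bars of 1 SE) for Ppp1r10, Inpp5b and Lctl (coloured) and the tested genes of their complex, families and partners (grey), with the median of all genes as a dashed line. Ppp1r10 at 1.02 stands beyond the other 5 genes of its complex, Inpp5b at 0.99 stands next to Inpp5d at 1.18, and Lctl at -1.69 stands below Klb at -0.55.

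The genes beside each member on its chromosome were examined for a shared difference. Mrps18b, a mitochondrial ribosomal protein gene, lies on the opposite strand 45 bases from Ppp1r10. It measured 46.7 to 72.3 TPM in high-fat and 44.6 to 76.0 TPM in low-fat libraries (log2 difference -0.05, SE 0.20, limma adjusted p = 0.939). Further out, Atat1, a tubulin acetyltransferase gene, differed by -0.12 (SE 0.28), Abcf1, a translation factor gene, by 0.32 (SE 0.17), and Prr3 by 0.53 (SE 0.25).

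Mtf1, which encodes a metal-responsive transcription factor, starts 593 bases after Inpp5b. It measured 8.59 to 16.3 TPM in high-fat and 6.15 to 13.4 TPM in low-fat libraries (0.51, SE 0.28, limma adjusted p = 0.541). Sf3a3, a splicing factor gene on the other side, differed by 0.12 (SE 0.24), and Fhl3 and 1110065P20Rik by -0.18 (SE 0.31) and -0.14 (SE 0.25).

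Zwilch, a kinetochore gene, overlaps the end of Lctl by 975 bases on the opposite strand. The annotated transcripts of Lctl and Zwilch share 258 bases, which reads assigned without regard to strand could not separate. Zwilch measured 2.52 to 7.45 TPM in high-fat and 2.35 to 29.7 TPM in low-fat libraries (-0.46, SE 0.58, limma adjusted p = 0.778). Its value of 29.7 TPM was in Null_LFD 3 alone, and the other low-fat libraries measured 2.35 to 7.40 TPM. Smad6, Smad3 and the ribosomal protein gene Rpl4 near Lctl differed by 0.49 (SE 0.40), 0.26 (SE 0.20) and 0.26 (SE 0.28). None of the 12 neighbours was called between the diets or between the genotypes, in comparisons where 0 of 16932 genes were called. Ppp1r10 transcripts also shared stretches of 433 and 432 bases at 91.7% and 90.7% identity with the pseudogenes Gm2213 and Gm8801, and Gm8801 reached at most 0.528 TPM. The noncoding gene Gm12915 overlaps Inpp5b by 9505 bases on the opposite strand and was not analysed here.

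Each member was set against all other tested protein-coding genes by the mean absolute difference of their centred log2 values over the 10 libraries. The members were chosen for their diet difference, so genes near them by this measure tend to share it. The diet ranges of these genes are therefore not separate support. Nearest to Ppp1r10 were the splicing-associated gene Tfip11 (0.153), the stress transcription factor gene Ddit3 (0.168) and Pld3, a lysosomal nuclease gene (0.171). Ddit3 measured 32.1 to 37.3 TPM in high-fat and 17.4 to 23.3 TPM in low-fat libraries. Nearest to Inpp5b were the cannabinoid receptor gene Cnr1 (0.177), the ubiquitin ligase gene Mycbp2 (0.198) and the folate hydrolase gene Folh1 (0.198). Cnr1 measured 4.41 to 7.02 TPM in high-fat and 1.85 to 3.00 TPM in low-fat libraries.

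Nearest to Lctl were Golga7b (0.285), Casq2, a calcium-binding protein gene of muscle (0.337), and the predicted gene Gm3468 (0.344). Casq2 measured 0 to 4.11 TPM in high-fat and 3.28 to 5.06 TPM in low-fat libraries. Gm3468 measured 0 to 3.95 TPM in high-fat and 3.54 to 8.45 TPM in low-fat libraries, so the diets overlapped for both genes. The mean absolute differences from Lctl are larger than those above, but the measure is not scaled to the variation of each gene. Lctl varied most within groups, with a residual SD of 0.50 on the log2 scale against 0.14 for Ppp1r10 and 0.21 for Inpp5b. Golga7b measured 0.380 to 4.42 TPM in high-fat and 3.65 to 11.7 TPM in low-fat libraries. Ppp1r10 and Inpp5b, both chosen for a diet difference that lay in the same direction, differed from each other by 0.31 on the same measure. All of these genes share the 10 libraries, so a likeness describes these samples alone.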

How the data were processed

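The deposited table gives expression for each gene symbol in each library, and no unit is stated. The values were read as log2(TPM + 1) made by the authors, because the deposited log2 values start at 0 and, taken back to TPM, total 946103 to 954463 in a library. kallisto, limma and GRCm38 appear in the submitters' processing notes, without roles or versions. Entries with no symbol (0.00544% to 0.0108% of TPM) were dropped.

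limma (3.58.1, in R 4.3.3) was fitted to all 10 libraries with a mean for each of the 4 groups, a variance trend and 6 residual degrees of freedom. It covered 16932 genes, those reaching 1 TPM in 2 or more libraries, and Benjamini-Hochberg adjustment ran over all of them with a threshold of 0.05. Tests were two-sided. Differences on this log2 scale understate the change of low genes, and p values measure the spread between the libraries as labelled. Positions came from GENCODE M21, which held 16180 of the tested symbols. Similar transcripts were sought with BLAST (2.17.0, at least 90% identity over 100 bases).

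Members, lists, motifs and tests were chosen with earlier results of these data known. Named genes are the members, the 5 protein-coding genes next in the diet comparison, the 3 most like each member, the nearest 2 tested protein-coding genes on either side and some genes of the pathway lists. The deviations of same-numbered libraries from their group means correlated at -0.346 to 0.412, without a common sign. In groups of 2 libraries these deviations mirror each other, so the correlations cannot exclude pairing. Numbers were not treated as pairs in the main fit. Alternatives were pseudocounts of 0.1 and 0.5 TPM, other filters, median-of-ratios scaling, variances without a trend, array weights, the replicate number as a block and left-out libraries.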

Additional observations from a re-analysis of the deposited data

How the results depend on the processing

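In the genotype comparisons and the interaction, none of the 3 members was called under the 19 alternatives. Their diet differences over both genotypes, described without a test, ran over the same alternatives at 0.89 to 1.07 for Ppp1r10, 0.86 to 1.09 for Inpp5b and -2.01 to -1.28 for Lctl. Among the diet differences, wild-type values moved beyond the replicate spread. These were Ppp1r10 with median-of-ratios scaling (1.12) and Lctl without WT_HFD 2 and Null_HFD 3 (-1.76). Over single left-out libraries the wild-type Lctl value ran from -3.01 to -1.76. Tested values, none of them called, also moved. Over the alternatives the high-fat genotype difference ran from 0.87 to 2.12 for Lctl and from 0.16 to 0.67 for Inpp5b. The interaction ran from 0.76 to 2.01 for Lctl and from 0.42 to 0.92 for Inpp5b. The low-fat genotype difference of Ppp1r10 ran from 0.41 to 0.65. The sign of uncalled genotype differences turned for Inpp5b over both diets (-0.0219 with median-of-ratios scaling, -0.0469 to 0.146 over single left-out libraries), for Ppp1r10 on the high-fat diet (-0.139 to 0.0333 over single left-out libraries) and for Lctl on the low-fat diet (-0.0447 with median-of-ratios scaling, -0.308 to 0.524 over single left-out libraries). The cause was not tested.

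With the replicate number as a block, the diet difference stayed at 1.02 for Ppp1r10, 0.99 for Inpp5b and -1.69 for Lctl. This was fixed in advance, because within each genotype both diets hold the same replicate numbers. The SE became 0.12, 0.18 and 0.20, against 0.13, 0.17 and 0.28 without the block. The genotype difference over both diets was 0.29, 0.07 and 0.89, and 0 genes were called in the averaged diet and genotype comparisons or in the interaction. Within null mice the block gave 3 genes called between diets, against 1 without it, and on the high-fat diet 2 between genotypes with and without it. Over both genotypes 3 genes were called between diets without a filter, 1 without WT_HFD 2 and Null_HFD 3, and 0 to 1 over single left-out libraries. Between genotypes over both diets 3 were called with a pseudocount of 0.1 TPM, 2 with 0.5 TPM, 15 without a filter, 5 with variances without a trend, 2 with array weights and 0 to 2 over single left-out libraries. Within a group, the counts without a filter were 18 between genotypes on the high-fat diet (17 lower in null, against 2 with the filter) and 5 between diets in wild-type mice (against 0), and with a pseudocount of 0.1 TPM 5 genes were called between genotypes on the low-fat diet (against 0). In the interaction 3 were called without a filter and 0 to 2 over single left-out libraries. TPM keeps no depth, so counting error could not be judged, and groups of 2 and 3 libraries limit the tests.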

Other observations

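The glycogen-targeting subunits among the PP1 regulators were singled out after their values were seen. Between the diets 0 of the 6 tested were called, as were 0 of all 16932 genes. Ppp1r3a, the subunit of skeletal muscle, measured 0.384 to 10.5 TPM in high-fat and 7.81 to 29.0 TPM in low-fat libraries (log2 difference -1.74, SE 0.73, limma adjusted p = 0.513), and its lowest values were in Null_HFD 3 and WT_HFD 2, the libraries with the least muscle marker transcript. Ppp1r3b measured 3.12 to 12.7 TPM in high-fat and 10.8 to 65.8 TPM in low-fat libraries (-1.54, SE 0.45, limma adjusted p = 0.513). Ppp1r3c measured 13.1 to 36.2 TPM in high-fat and 31.6 to 63.2 TPM in low-fat libraries (-0.89, SE 0.36, limma adjusted p = 0.513). The differences of Ppp1r3d, Ppp1r3e and Ppp1r3f were nearer to 0, at -0.22 (SE 0.26), -0.22 (SE 0.30) and -0.09 (SE 0.53), and the ranges of the diets overlapped for all 6 genes. Ppp1r15a, which encodes the stress-induced PP1 partner GADD34, measured 7.82 to 19.8 TPM in high-fat and 4.57 to 9.84 TPM in low-fat libraries (0.91, SE 0.27, limma adjusted p = 0.513).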
